A study of Mus musculus with 9 samples.

Results

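Trp63, Klf4, Klf5, Grhl1, Grhl3, Cebpa, Cebpb, Gata6, Prdm1 and Myc are transcription factors of epidermal and sebaceous differentiation, and their transcripts were compared between 3 compartments of mouse tail skin, the sebaceous gland (SG), the hair follicle (HF) and the epidermis between follicles, called interfollicular (IFE). A probe set was assigned to one of these genes where the platform annotation gave 1 gene symbol and that symbol was a member. All 10 members were found among 14507 genes on the array, and they rested on 93 of 154736 probe sets. Tail epidermis came from adult female wild-type mice of the C57BL6/CBA background, matched for age, and the 3 groups shared strain, genotype and sex. Pieces of each compartment were dissected by hand and pooled, so that each array carried the RNA of 1 pool, and there were 3 SG, 3 HF and 3 IFE arrays, named as biological replicates. The number of animals in a pool was not given in the sources used here. RNA was amplified, converted to sense cDNA, labelled with biotin and hybridised to an exon-level array, which reads a gene through several probe sets. A value below is the log2 of the deposited intensity, a gene value is the median over its probe sets, and a difference is the first compartment named minus the second. In pooled tissue, fewer cells of a type and less RNA per cell cannot be told apart.

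The epidermis renews itself from basal keratinocytes that withdraw from the cell cycle, move outward and build the cornified barrier, while sebocytes fill with lipid and burst. Trp63 encodes p63, which maintains stratified epithelium, and the Krüppel-like factors Klf4 and Klf5, the Grainyhead-like factors Grhl1 and Grhl3 and the C/EBP factors Cebpa and Cebpb act in keratinocyte differentiation and barrier formation. Gata6 and Prdm1 (Blimp1) are known from the upper follicle and the sebaceous lineage, and Myc drives growth and, when raised in mouse epidermis, sebaceous differentiation.

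Promoter windows of the reference genome, from 250 bases before to 50 bases after an annotated start, were available from RefSeq (GRCm38.p6) for 6 of the 10 members. Trp63, Klf5, Gata6 and Myc had no matched entry. The windows of Klf4, Grhl1, Grhl3 and Prdm1 are shown because these 4 members passed the moderated F test over the compartments described below. The capitals mark matches, on either strand, to motifs named for the members' own families or for AP-1. The Klf4 window (chr4:55532426-55532725, minus strand) held 4 matches of the GC box GGGCGGG, some overlapping each other, and 1 E-box, CACGTG, the motif of Myc and its partners, at position -182 from the start. The first Grhl1 window (chr12:24572037-24572336, plus strand) held 1 GC box. The Grhl3 window (chr4:135573583-135573882, minus strand) held 2 matches of the CACCC box CCACCC, a motif of Krüppel-like factors, as the GC box is. The Prdm1 window (chr10:44458699-44458998, minus strand) held 1 match of the AP-1 motif TGANTCA at position -48.
Klf4: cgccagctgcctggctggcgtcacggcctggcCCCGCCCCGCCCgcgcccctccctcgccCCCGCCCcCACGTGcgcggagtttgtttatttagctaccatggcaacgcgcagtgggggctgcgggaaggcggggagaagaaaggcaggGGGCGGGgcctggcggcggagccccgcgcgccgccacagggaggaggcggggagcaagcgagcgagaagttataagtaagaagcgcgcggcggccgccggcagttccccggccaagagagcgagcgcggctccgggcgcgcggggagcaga
Grhl1: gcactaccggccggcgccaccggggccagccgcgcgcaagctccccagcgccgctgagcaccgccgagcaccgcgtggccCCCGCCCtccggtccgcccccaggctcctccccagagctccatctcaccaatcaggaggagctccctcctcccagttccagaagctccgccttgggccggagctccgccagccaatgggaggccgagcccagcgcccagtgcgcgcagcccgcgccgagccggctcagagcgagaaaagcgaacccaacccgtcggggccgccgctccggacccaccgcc
Grhl3: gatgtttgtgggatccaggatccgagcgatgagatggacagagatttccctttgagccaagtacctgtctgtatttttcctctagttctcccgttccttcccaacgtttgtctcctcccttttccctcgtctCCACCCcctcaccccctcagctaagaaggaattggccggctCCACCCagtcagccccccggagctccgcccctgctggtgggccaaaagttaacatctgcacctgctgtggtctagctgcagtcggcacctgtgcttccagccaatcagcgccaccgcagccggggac
Prdm1: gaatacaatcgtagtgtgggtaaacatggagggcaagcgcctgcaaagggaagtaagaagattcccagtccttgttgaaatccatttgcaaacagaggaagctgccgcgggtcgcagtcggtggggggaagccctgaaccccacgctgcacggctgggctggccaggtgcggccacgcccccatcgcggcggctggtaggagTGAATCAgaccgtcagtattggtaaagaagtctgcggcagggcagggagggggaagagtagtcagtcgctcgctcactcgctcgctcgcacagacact
Among 32851 windows of the same length, 25.6% held the GC box, 31.5% the CACCC box, 7.15% the E-box and 7.81% the AP-1 motif. The C/EBP motif TTGCNNAA, in 10.8% of all windows, the Grainyhead motif ACCGGTT, in 1.02%, and the GATA motif AGATAA, in 11.2%, were not among the letters of these 4 windows. A match describes letters and is no evidence of binding.

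The median intensity of an array lay between 176 and 234, and no further normalization was applied. Gene values correlated at 0.921 to 0.977 within a compartment and at 0.846 to 0.93 between compartments. The array file name held in each description named a compartment other than the title for 9 of 9 arrays, and groups were taken from the titles. Marker levels ran with the titles. The sebocyte list (14 genes measured), as its mean after centring each gene, lay at 1.48 to 1.87 in SG, -0.38 to 0.20 in HF and -1.77 to -1.43 in IFE, although its member Dgat2 was lower in SG than in IFE. The list of shaft and inner root sheath genes (12 measured) lay at 2.63 to 3.32 in HF and -2.5 to -2.46 in IFE, while SG replicates 1, 2 and 3 read -1.58, -1.42 and 1.19. The suprabasal list (9 genes) lay at -0.55 to -0.37 in SG, -0.22 to 0.01 in HF and 0.39 to 0.75 in IFE, with Krt77 going the other way. SG replicate 3, with its hair shaft transcripts, therefore stood apart from the other SG arrays, and HF replicate 2 had the lowest hair shaft level and the highest sebocyte level of the HF arrays. Where leaving out either array moved a member gene across a threshold, the value without it is given.

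In SG against IFE, 5 of the 10 members fell, namely Klf4, Klf5, Grhl1, Grhl3 and Myc, and none rose, where a change required a limma p adjusted over all genes to stay below 0.05 and the log2 difference to reach 1 in size. Over all genes 9.49% changed in that comparison, 2.54% upward and 6.96% downward. In HF against IFE, 3 members fell, Klf4, Grhl3 and Myc, where 6.31% of all genes changed, 2.96% upward and 3.36% downward. In SG against HF no member passed both thresholds, where 5.11% of all genes changed, 1.81% upward and 3.3% downward. There 4 members had an unadjusted p under 0.05, and Grhl1, Grhl3 and Prdm1 had an adjusted p under 0.05 with a smaller difference. The median difference of the 10 members was -0.98 in SG against IFE, -0.69 in HF against IFE and -0.11 in SG against HF, beside -0.06, -0.07 and -0.02 over all genes. The first 2 comparisons share the IFE arrays. Quantile normalization moved the median over all genes in SG against IFE to 0.16, and the members' median to -0.60. It also moved the split of calls over all genes to 609 higher and 476 lower, beside 368 higher and 1009 lower without it, and median centring gave 645 higher and 572 lower. In a further alternative, called the letter block below, arrays whose file names end in the same letter formed a block. Klf4, Klf5 and Grhl3 fell in SG under both scalings, and Grhl1 and Myc did not reach a log2 difference of 1 under either.

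**Figure D1:**
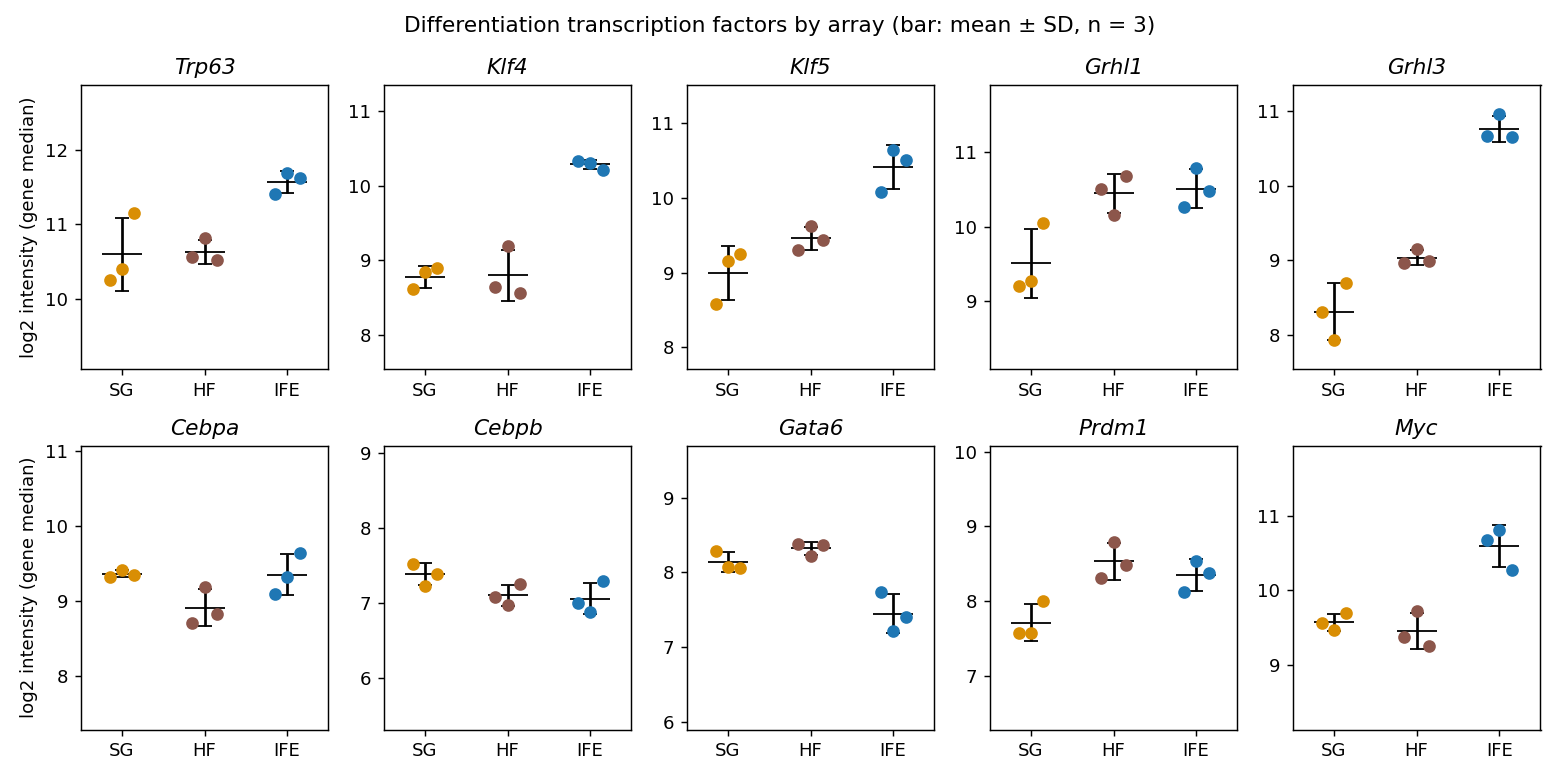
The log2 gene value of each of the 10 members (vertical axis) on each of the 3 SG, 3 HF and 3 IFE arrays (points), with bars at the group mean ± SD. Trp63, Klf4, Klf5, Grhl3 and Myc have their 3 highest arrays in IFE, Gata6 its 3 lowest, and for Cebpa and Cebpb both SG and HF overlap IFE.

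**Figure D2:**
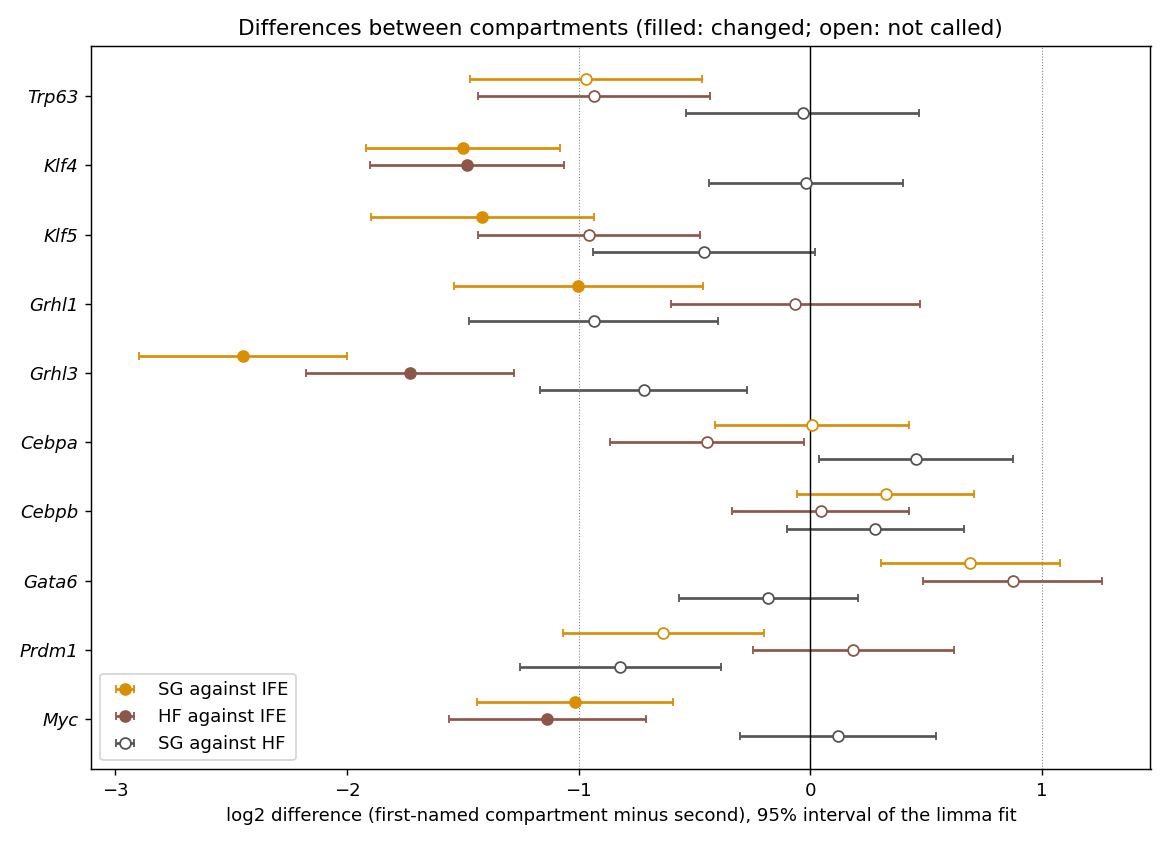
Log2 differences of the 10 members in the 3 comparisons with 95% confidence intervals from the limma fit, filled where the change was called. Grhl3 lies farthest below 0 against IFE, at -2.45 in SG and -1.73 in HF, while Gata6 lies above 0 in both.

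A moderated F test over the 3 compartments passed for 8 of the 10 members, all but Cebpa (adjusted p = 0.148) and Cebpb (adjusted p = 0.314), where 24.5% of all genes passed. Groups did not overlap for 8 members in SG against IFE (34.9% of all genes), 6 in HF against IFE (32.8%) and 5 in SG against HF (29.3%). For Trp63, Klf4, Klf5, Grhl3 and Myc the 3 highest arrays of 9 were all IFE arrays. The share of all genes with that order is not given here, so it only describes these members.

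Grhl3, a Grainyhead-like factor needed in mice for barrier formation, had the largest difference from IFE among the members. Its gene value was 8.31, 7.93 and 8.70 on the SG arrays, 8.96, 9.15 and 8.99 on the HF arrays and 10.67, 10.97 and 10.65 on the IFE arrays. Every SG array lay below every HF array, and every HF array below every IFE array. Grhl3 fell by 2.45 ± 0.21 (SE) in SG against IFE, a 5.46-fold change (limma, adjusted p = 1.64e-05), and by 1.73 ± 0.21 in HF against IFE, a 3.32-fold change (adjusted p = 0.000211). The SG minus HF difference was -0.72 ± 0.21, with a 95% interval of -1.17 to -0.27 (adjusted p = 0.0474). That difference was -0.91 (adjusted p = 0.0105) without SG replicate 3, the highest SG array. Among other settings, it did not keep an adjusted p under 0.05 without HF replicate 2 (-0.66, adjusted p = 0.136), without SG replicate 2 (-0.53, adjusted p = 0.174) or under quantile normalization (-0.59, adjusted p = 0.0663). Over 21 alternatives its adjusted p reached 0.213. All 18 probe sets of Grhl3 read lower in SG and in HF than in IFE, and 17 of them passed the test over all probe sets in each. The exception, 5291659, differed by -0.55 in SG and -0.45 in HF. Against HF, 4 of the 18 fell in SG. The window of Grhl3 with its CACCC boxes is printed above.

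Grhl1, which regulates desmosomal cadherins, read lower in SG than in both other compartments. It read 9.21, 9.28 and 10.04 in SG, 10.51, 10.15 and 10.67 in HF and 10.27, 10.79 and 10.48 in IFE. The SG arrays were the 3 lowest, and HF and IFE overlapped. Grhl1 fell by 1.00 ± 0.25 in SG against IFE (limma, adjusted p = 0.013), only just past the log2 threshold of 1. The difference was -0.94 ± 0.25 in SG against HF (adjusted p = 0.0336) and -0.07 ± 0.25 in HF against IFE (adjusted p = 0.902), with a 95% interval of -0.60 to 0.47. All 10 probe sets read lower in SG than in IFE, 8 of them past the test. SG replicate 3 was the highest of the SG arrays. Without it the difference to HF was -1.20 (adjusted p = 0.00419), which passed both thresholds, as it did without HF replicate 2 at -1.08 (adjusted p = 0.0355). The adjusted p of that difference exceeded 0.05 without SG replicate 1 (0.117), SG replicate 2 (0.126), HF replicate 1 (0.108) or HF replicate 3 (0.147) and under the letter block (0.142). The fall against IFE did not pass without SG replicate 1 (-0.85, adjusted p = 0.0496), SG replicate 2 (-0.89, adjusted p = 0.0542) or IFE replicate 2 (-0.86, adjusted p = 0.0646). Nor did it pass under quantile normalization (-0.59, adjusted p = 0.0689), median centring (-0.76, adjusted p = 0.0256) or the letter block (-0.87, adjusted p = 0.0536). Of the 6 measured genes of the Grainyhead and CP2 family, Grhl3 and Grhl1 fell in SG against IFE, Grhl3 alone fell in HF, and none rose. Grhl2, their relative in simple and stratified epithelia, differed by -0.57 in SG (adjusted p = 0.0579).

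Klf4, a zinc-finger factor that in mice is required for the skin barrier, set the IFE apart from both appendages. Klf4 read 8.61, 8.84 and 8.89 in SG, 8.64, 9.19 and 8.57 in HF and 10.33, 10.31 and 10.21 in IFE. The SG and HF arrays overlapped, and all lay more than 1 log2 unit below every IFE array. Klf4 fell by 1.5 ± 0.19 in SG (limma, adjusted p = 0.000266) and by 1.48 ± 0.19 in HF (adjusted p = 0.000367), each against IFE. With the mean over probe sets in place of the median, the HF difference was -0.91 (adjusted p = 0.00291), short of the threshold. The SG minus HF difference was -0.02, with a 95% interval of -0.44 to 0.40, and its sign changed under quantile normalization and median centring. With each probe set centred on its own mean before the median was taken, that difference was -0.34 (adjusted p = 0.309). By the brightest probe set it was -0.60. Among the 6 probe sets, 5 read lower in SG than in HF, with a median of -0.41, and none passed the test. Of 6 probe sets, 4 fell in both comparisons with IFE. The brightest, 4571010, read 10.77, 10.72 and 10.92 in SG, 11.24, 11.58 and 11.40 in HF and 12.67, 12.70 and 12.50 in IFE. The pair 4894339 and 4932647 showed no such step, with SG minus IFE differences of 0.14 and 0.19, and both deviated from the rest of the gene there (adjusted p = 0.00756 and 0.00725).

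Klf5, which is known from proliferating epithelial cells, read 8.58, 9.16 and 9.25 in SG, 9.31, 9.62 and 9.44 in HF and 10.08, 10.64 and 10.51 in IFE. The 3 groups did not overlap, with HF between SG and IFE. Klf5 fell by 1.42 ± 0.22 in SG against IFE (limma, adjusted p = 0.000885), and by the mean over probe sets it differed by -0.95 (adjusted p = 0.0015), short of the threshold. The HF minus IFE difference was -0.96 ± 0.22 (adjusted p = 0.0142), short of the log2 threshold, and passed it without IFE replicate 1 at -1.12 (adjusted p = 0.00803) and without HF replicate 2 at -1.04 (adjusted p = 0.0246). It was smaller by the mean over probe sets (-0.58, adjusted p = 0.0299), with centred probe sets (-0.59, adjusted p = 0.058) and by the brightest probe set (-0.67, adjusted p = 0.0569). Its adjusted p was also above 0.05 under the letter block (0.131) and without HF replicate 1 (0.0685), HF replicate 3 (0.0565), IFE replicate 2 (0.0732) or IFE replicate 3 (0.0584). The SG minus HF difference was -0.46 (adjusted p = 0.236, 95% interval -0.94 to 0.02). Of 8 probe sets, 5 fell in SG against IFE, by 1.22 to 1.85, while 4506999 and 5134370 differed by 0.26 and 0.00. Among 15 measured genes of the Klf family, 4 fell in SG against IFE and none rose. These were Klf3 (-2.11 ± 0.18, adjusted p = 1.71e-05), Klf4, Klf5 and Klf6 (-1.27 ± 0.22, adjusted p = 0.00194), of which Klf6 did not reach the threshold under quantile normalization (-0.88). In HF, Klf4 and Klf8 (-1.12, adjusted p = 0.0093) fell, and Klf3 fell in SG against HF (-1.16, adjusted p = 0.00203). The family median was -0.35 in SG against IFE, beside -0.06 over all genes, and -0.18 beside 0.16 after quantile normalization.

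Trp63, the lineage factor of stratified epithelia, read 10.25, 10.40 and 11.16 in SG, 10.56, 10.82 and 10.52 in HF and 11.40, 11.68 and 11.62 in IFE. The IFE arrays were the 3 highest, and SG replicate 3 lay closest to them. The difference was -0.97 ± 0.23 in SG against IFE (limma, adjusted p = 0.0107) and -0.93 ± 0.23 in HF against IFE (adjusted p = 0.0201), each short of the log2 threshold of 1. Without SG replicate 3 the difference in SG was -1.25 (adjusted p = 0.000816). Without HF replicate 2 that in HF was -1.03 (adjusted p = 0.0312). Leaving out IFE replicate 1 gave -1.05 in SG (adjusted p = 0.0132) and -1.02 in HF (adjusted p = 0.0222). All of these passed both thresholds. So did the mean over probe sets in SG (-1.03, adjusted p = 0.00194). Array weights also passed both, at -1.10 in SG (adjusted p = 0.00147) and -1.03 in HF (adjusted p = 0.000837). Some other settings gave smaller differences. Quantile normalization gave -0.63 in SG (adjusted p = 0.0417) and -0.70 in HF (adjusted p = 0.0423), and the letter block -0.77 (adjusted p = 0.138) and -0.87 (adjusted p = 0.157). In HF the adjusted p also exceeded 0.05 without HF replicate 1 (0.0799), HF replicate 3 (0.0846), IFE replicate 2 (0.0855) or IFE replicate 3 (0.0711). SG and HF overlapped, with a difference of -0.03 (95% interval -0.54 to 0.47), which turned positive under both scalings and when SG replicate 1, SG replicate 2 or HF replicate 2 was left out. All 18 probe sets of Trp63 read lower in SG and in HF than in IFE, and 8 in SG and 5 in HF passed the test. The differences in SG ran from -2.06 for 4776984 to -0.62 for 4791908. No probe set of Trp63 deviated from the rest of the gene by the test of deviation. Trp73, the other measured p53 relative, differed by -0.21 in SG (adjusted p = 0.361). Of 14 measured epidermal genes linked to p63, 5 fell in SG against IFE and 4 in HF, and none rose. Under either scaling 3 fell in SG and 2 in HF. Satb1, a chromatin organiser, fell in both (-2.24 in SG, adjusted p = 7.79e-05, and -2.19 in HF, adjusted p = 0.000118), as did the integrin Itga6 (-1.71 and -1.94) and the receptor Fgfr2 (-1.54 and -1.10). In the same list, the keratin genes Krt14 (0.24, adjusted p = 0.442) and Krt5 (-0.10, adjusted p = 0.765) did not pass in SG against IFE. The list of basal keratinocyte markers, which shares genes with it, lay at -0.35 to -0.11 in SG, -0.39 to -0.20 in HF and 0.24 to 0.70 in IFE. Its part in the Trp63 result was not tested.

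Myc, the growth-promoting bHLH factor, read 9.56, 9.47 and 9.69 in SG, 9.37, 9.73 and 9.26 in HF and 10.68, 10.81 and 10.28 in IFE. The SG and HF arrays overlapped, and all lay below the lowest IFE array, replicate 3. Myc fell by 1.14 ± 0.19 in HF against IFE (limma, adjusted p = 0.0025) and by 1.02 ± 0.19 in SG against IFE (adjusted p = 0.00322). The fall in SG lay just past the log2 threshold and came short of it without SG replicate 2 (-0.96), IFE replicate 1 (-0.97) or IFE replicate 2 (-0.91). Quantile normalization gave -0.60 in SG (adjusted p = 0.0492) and median centring -0.78 (adjusted p = 0.0155). The mean over probe sets gave -0.94, centred probe sets -0.95 and array weights -0.98, so that 8 of 21 alternatives came short. The fall in HF came short of the threshold under quantile normalization (-0.87). Of 4 probe sets, 4 fell in HF and 2 in SG, and all 4 read lower in both. In the network of Myc, Max and their partners, 13 genes were measured. Mycl fell in SG (-1.22, adjusted p = 0.000667) and in HF (-1.0, adjusted p = 0.0035), and Mycn rose in HF (1.04 ± 0.23, adjusted p = 0.0123). The Mycl falls came short of the log2 threshold under both scalings, and Mycn also rose in SG under both. Of 14 measured Myc targets of ribosome production and growth, none changed in SG or HF against IFE, with medians of -0.21 and -0.39, of which the first turned to 0.13 under quantile normalization and 0.03 under median centring. Ncl, the gene of nucleolin, rose in SG against HF (1.23, adjusted p = 0.00262). Immediate early genes, which dissociation and handling can induce, moved with Myc and Klf4. Their list of 15 measured genes lay at -0.79 to -0.46 in SG, -0.31 to 0.13 in HF and 0.30 to 1.04 in IFE. Of these, 10 fell in SG, led by Btg2 (-2.36) and Zfp36 (-2.44), and 6 fell in HF, with Egr2 rising there (1.63). IFE replicate 3, with the lowest immediate early level of the IFE arrays at 0.30, also had the lowest Myc, Klf4 and Grhl3 values of that group. Grhl3 read 10.65 there and 10.67 on IFE replicate 1. The other members did not follow, as Trp63, Klf5, Grhl1, Cebpa and Prdm1 were lowest on IFE replicate 1. Cebpb and Gata6 were lowest on IFE replicate 2. The highest immediate early level, 1.04, was on IFE replicate 1, while Myc was highest on IFE replicate 2. Klf4 was highest on IFE replicate 1 but differed little among the IFE arrays, at 10.21 to 10.33. The part of this response in the Myc and Klf4 results was not tested.

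**Figure D3:**
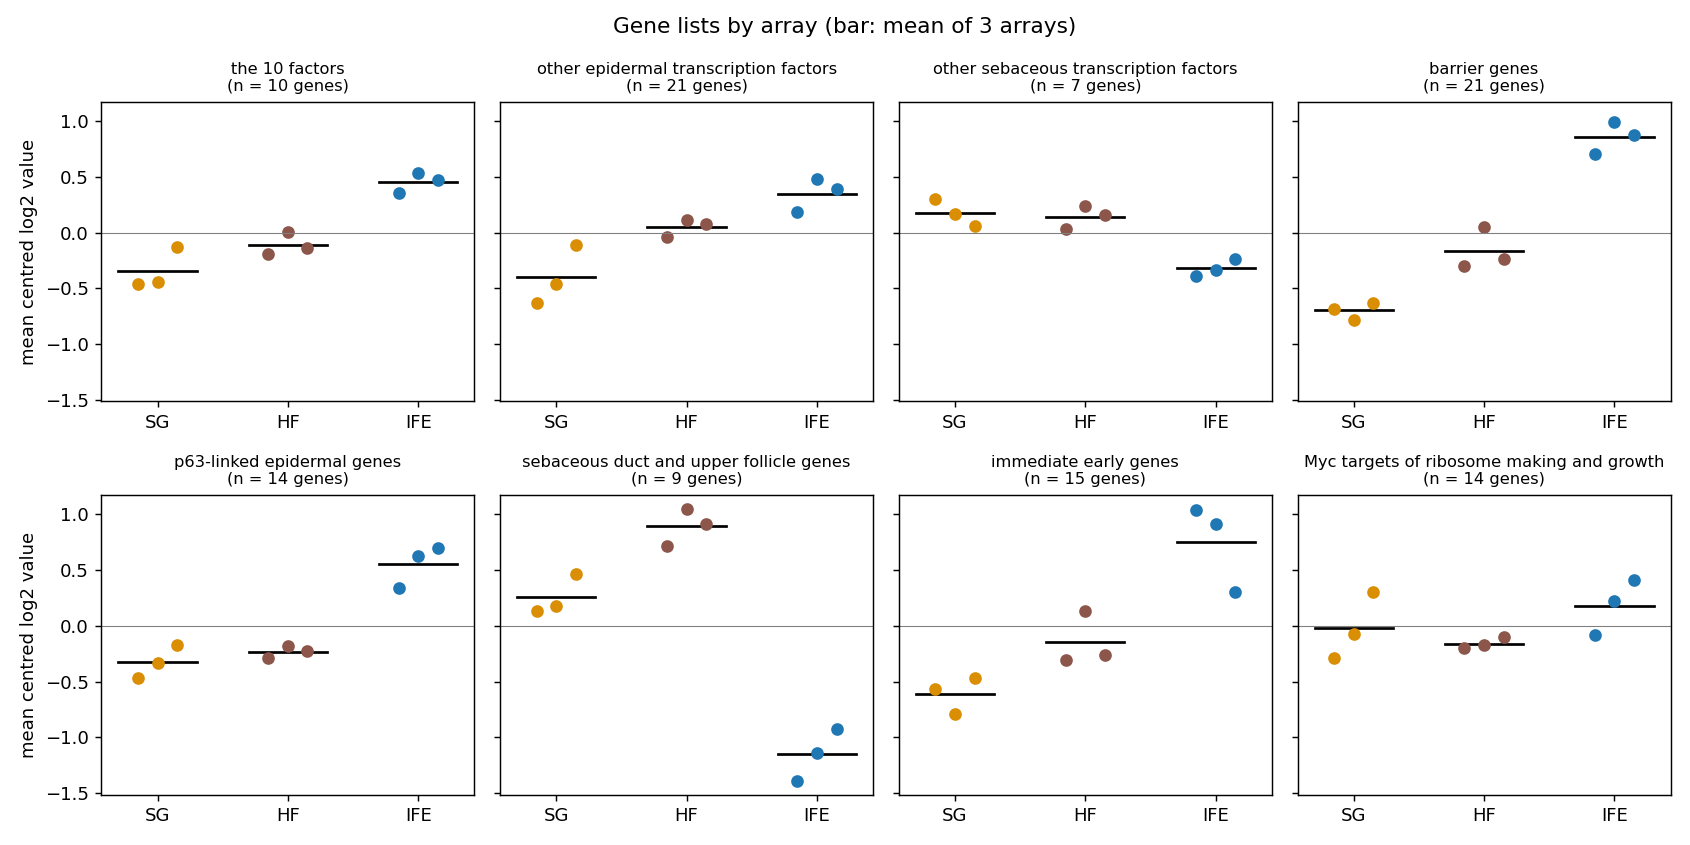
Mean of gene lists on each array, as log2 values after each gene was centred on its mean over the 9 arrays, for the SG, HF and IFE arrays, with bars at the group means. Barrier genes lie at -0.78 to -0.63 in SG and 0.71 to 0.99 in IFE, and immediate early genes are highest in IFE at 0.30 to 1.04.

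Gata6, a zinc-finger factor known from the sebaceous duct and upper follicle, went the opposite way. It read 8.29, 8.07 and 8.06 in SG, 8.38, 8.22 and 8.37 in HF and 7.73, 7.22 and 7.40 in IFE. The IFE arrays were the 3 lowest, and SG and HF overlapped. The difference was 0.87 ± 0.18 in HF against IFE (limma, adjusted p = 0.0071) and 0.69 ± 0.18 in SG against IFE (adjusted p = 0.0163), both short of the log2 threshold of 1. The SG minus HF difference was -0.18 (95% interval -0.57 to 0.21). Its probe sets responded unequally, as the same 3 of 10 rose in each comparison with IFE and the other 7 did not pass. Probe set 5282182 read 8.93, 8.18 and 8.21 in SG, 8.51, 9.12 and 8.81 in HF and 5.55, 6.38 and 6.0 in IFE. Probe set 5417610 read 7.97, 7.89 and 7.66 in SG, 7.89, 7.47 and 8.34 in HF and 5.09, 5.12 and 5.86 in IFE. In both, every SG and HF array lay above every IFE array. Probe set 5148899 was less even, at 9.26, 7.26 and 6.63 in SG, 9.49, 9.76 and 8.94 in HF and 5.34, 6.62 and 5.24 in IFE. Their SG minus IFE differences were 2.46, 2.49 and 1.99 and their HF minus IFE differences 2.84, 2.55 and 3.67 in the same order. By contrast, 5123981 differed by -0.24 in SG and 0.01 in HF. Probe sets 5282182, 5417610 and 5123981 deviated from the rest of the gene in both comparisons. For 5123981, which itself moved little, that rest included the 3 probe sets that rose. With the mean over probe sets in place of the median, Gata6 rose in HF by 1.14 (adjusted p = 0.00029), and it also passed without IFE replicate 1 at 1.01 (adjusted p = 0.00348). By the brightest probe set the difference was 0.58 in HF (adjusted p = 0.173) and 0.60 in SG (adjusted p = 0.113), and under the letter block 0.82 (adjusted p = 0.131) and 0.59 (adjusted p = 0.195). In SG the adjusted p exceeded 0.05 without SG replicate 1 (0.054), IFE replicate 2 (0.0771) or IFE replicate 3 (0.0572). None of the 6 measured Gata genes changed in any comparison by its median. Of 9 measured genes of the sebaceous duct and upper follicle, 6 rose in SG and 7 in HF against IFE. The antimicrobial peptide gene Defb6 rose by 4.29 in SG (adjusted p = 4.37e-06) and 3.36 in HF (adjusted p = 2.88e-05), and the keratin gene Krt79 by 4.01 and 3.59. The list of resting follicle markers followed the order of Gata6, with 12 genes measured that lay at 0.30 to 0.47 in SG, 0.37 to 0.47 in HF and -0.93 to -0.78 in IFE. Of these genes 6 rose in SG and 7 in HF against IFE, and none fell. Its part in the Gata6 result was not tested. The smooth muscle gene Acta2 rose in HF against IFE (1.96, adjusted p = 6.68e-05). The whole smooth muscle list of 6 genes lay at -0.24 to 0.03 in SG, 0.19 to 0.32 in HF and -0.24 to -0.08 in IFE, so that SG overlapped IFE.

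Prdm1, the transcriptional repressor Blimp1, read 7.56, 7.57 and 7.99 in SG, 8.31, 8.79 and 8.48 in HF and 8.11, 8.54 and 8.38 in IFE. The SG arrays were the 3 lowest, SG replicate 3 lay close to the lowest IFE array, and HF and IFE overlapped. The difference was -0.82 ± 0.20 in SG against HF (limma, adjusted p = 0.0225), -0.64 ± 0.20 in SG against IFE (adjusted p = 0.0394) and 0.18 ± 0.20 in HF against IFE (adjusted p = 0.613). Without SG replicate 3 the SG differences were -0.96 to HF (adjusted p = 0.0105) and -0.78 to IFE (adjusted p = 0.0187), and without HF replicate 2 that to HF was -0.69 (adjusted p = 0.0891). The difference to HF also had an adjusted p above 0.05 without SG replicate 1 (0.0768), SG replicate 2 (0.0879) or HF replicate 3 (0.0752) and under the letter block (0.149). The difference to IFE shrank to -0.35 (adjusted p = 0.143) under quantile normalization and -0.40 (adjusted p = 0.0999) under median centring. Its adjusted p was 0.109 without SG replicate 1, 0.12 without SG replicate 2, 0.0609 without HF replicate 3, 0.147 without IFE replicate 2, 0.107 without IFE replicate 3 and 0.252 under the letter block. Of 12 probe sets, 8 fell in SG against HF and 4 in SG against IFE. The median over the 12 probe-set differences in SG against HF was -1.62, larger in size than the difference of the gene medians. Probe set 5367285 read 7.85, 6.68 and 8.11 in SG, 10.26, 9.92 and 10.50 in HF and 9.10, 9.81 and 9.75 in IFE. Its 3 SG arrays lay below all others. Its SG minus HF difference was -2.68 ± 0.37 (adjusted p = 0.00422). Probe set 4985016 read higher in SG than in HF, by 0.64, and deviated from the rest of the gene (adjusted p = 0.016). When each probe set was first centred on its own mean over the arrays, Prdm1 fell by 1.5 ± 0.25 in SG against HF (adjusted p = 0.00412) and by 1.10 ± 0.25 in SG against IFE (adjusted p = 0.00957). This alternative was added after the data were seen, and under it 8.57% of all genes changed in SG against IFE, 5.65% in HF against IFE and 4.59% in SG against HF. The members called under it were Klf4, Klf5, Grhl1, Grhl3 and Prdm1 in SG against IFE, Klf4, Grhl3 and Myc in HF against IFE, and Prdm1 in SG against HF. All 12 probe sets read higher in HF than in IFE, by 0.05 to 0.89, and none passed the test. The T cell list, whose cells can express Prdm1, had 7 measured genes and lay at 0.19 to 0.26 in SG, -0.50 to -0.05 in HF and -0.21 to 0.34 in IFE. Its part in the Prdm1 result was not tested. No measured gene of the Prdm family changed by its median.

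**Figure D4:**
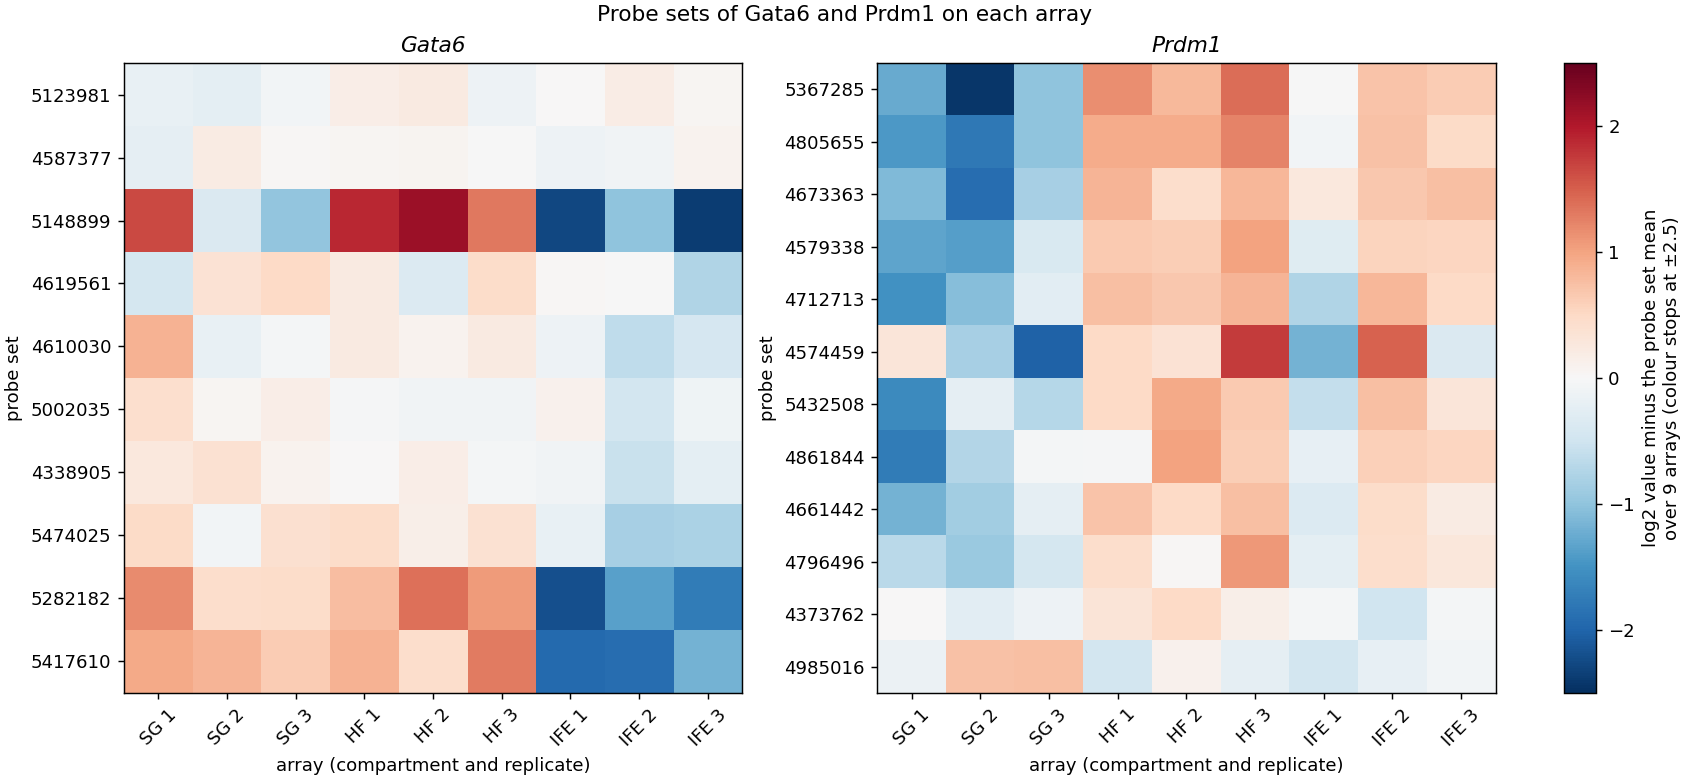
Probe sets of Gata6 and Prdm1 (vertical axis) on each array (horizontal axis), coloured by the log2 value minus the probe set mean over the 9 arrays. Probe sets 5148899, 5282182 and 5417610 of Gata6 rose in both comparisons with IFE, while 8 of 12 Prdm1 probe sets fell in SG against HF and 4985016 read higher there.

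Cebpa and Cebpb, factors of keratinocyte and sebocyte differentiation, did not pass the test in any comparison by their gene values. With centred probe sets some differences had an adjusted p under 0.05 but stayed short of the log2 threshold. Cebpa then differed by -0.61 in HF against IFE (limma, adjusted p = 0.0201) and by 0.57 in SG against HF (adjusted p = 0.0326). Cebpb differed by 0.48 in SG against IFE (adjusted p = 0.0417). All 4 Cebpa probe sets read higher in SG than in HF, and all 3 of Cebpb higher in SG than in IFE. Cebpa read 9.32, 9.41 and 9.35 in SG, 8.71, 9.18 and 8.83 in HF and 9.09, 9.32 and 9.64 in IFE. The SG arrays lay within the range of the IFE arrays and above all HF arrays. Its difference was 0.01 ± 0.19 in SG against IFE (95% interval -0.41 to 0.43), -0.45 ± 0.19 in HF against IFE (limma, adjusted p = 0.164) and 0.45 ± 0.19 in SG against HF (adjusted p = 0.178). The 4 probe sets of Cebpa differed among themselves. The brightest, 4491082, read 11.71, 12.24 and 11.98 in SG, 11.29, 11.68 and 11.41 in HF and 12.57, 12.78 and 12.81 in IFE. It fell by 1.26 ± 0.22 in HF against IFE (adjusted p = 0.00721), and in SG it differed by -0.74 (adjusted p = 0.038) and deviated from the rest of the gene (adjusted p = 0.0355). Cebpb read 7.52, 7.23 and 7.39 in SG, 7.07, 6.98 and 7.26 in HF and 7.00, 6.88 and 7.29 in IFE, and all 3 groups overlapped. Its SG minus IFE difference was 0.32 ± 0.17 (adjusted p = 0.212, 95% interval -0.06 to 0.71), and none of its 3 probe sets passed. Cebpb was the 1 member that a filter on dim genes removed. The filter kept the other 9 members, and applied to probe sets it kept 82 of the 93 of all members. Among the 4 measured C/EBP genes, Cebpg fell in SG against IFE (-1.41 ± 0.27, adjusted p = 0.00323). The family medians in SG against IFE were -0.22 as deposited, 0.11 after quantile normalization and 0.02 after median centring, so the family had no direction that held across scalings.

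Over all 10 members, 48 of 93 probe sets fell and 3 rose in SG against IFE, where 12.4% and 3% of all probe sets did and 15.4% changed in either direction. In HF against IFE 31 fell and 3 rose, where 3.81% and 2.96% of all probe sets did and 6.76% changed either way. In SG against HF 14 fell and none rose, where 4.24% fell, 1.53% rose and 5.78% changed either way. These counts turned on single arrays. The 34 in HF against IFE became 19 without IFE replicate 2 and without either of HF replicates 1 and 3. The 14 in SG against HF became 24 without SG replicate 3, and 4 to 8 without SG replicate 2, IFE replicate 3 or any 1 HF array. Under the letter block the 3 counts were 27, 7 and 0. All 3 that rose, in each comparison with IFE, belonged to Gata6. A probe set was called deviating where its difference departed from that of the other probe sets of its gene at an adjusted p under 0.05. This held for 16 of 93 in SG against IFE (4.1% of all probe sets tested), 6 in HF against IFE (1.09%) and 2 in SG against HF (0.415%), and involved 17 probe sets of 6 members. Gata6 gave 8 of these 24 calls, Klf4, Grhl3 and Prdm1 4 each, Klf5 3 and Cebpa 1. The 24 calls became 9 without IFE replicate 2, 11 to 15 without any other IFE array or any HF array, and 0 under the letter block. The array annotation used here did not place probe sets on exons, so that a deviating probe set was not tied to an isoform.

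**Figure D5:**
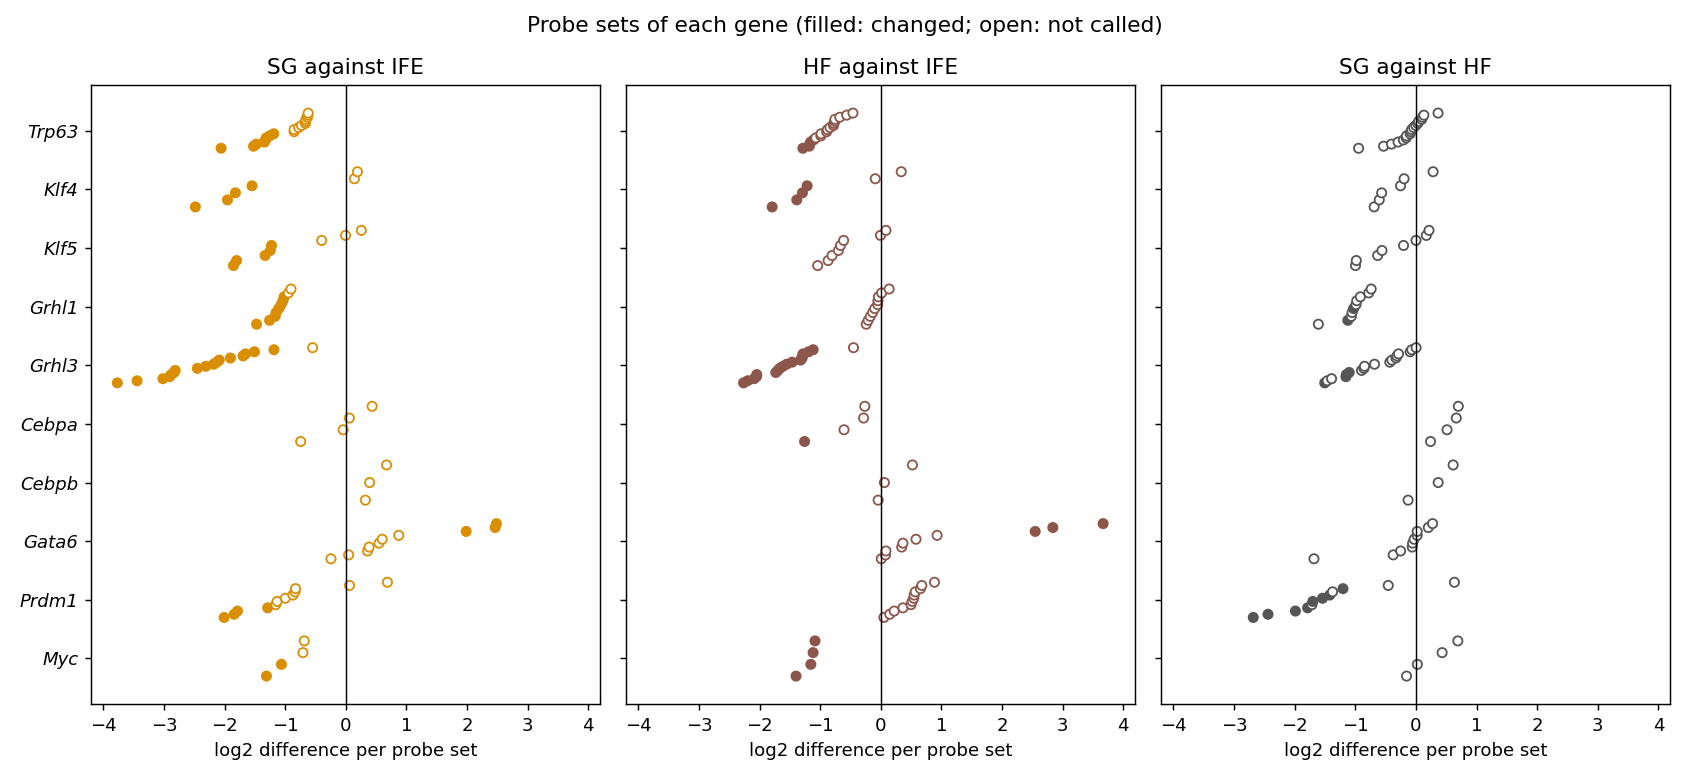
Log2 difference of each member's probe sets (points) in the comparisons of SG with IFE, HF with IFE and SG with HF, grouped by gene and filled where the change was called. All 18 probe sets of Trp63 and of Grhl3 lie below 0 against IFE, and 3 probe sets of Gata6 lie at 1.99 to 3.67.

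Other transcription factors of these lineages were set beside the members. Of 21 other measured epidermal transcription factors, 8 fell in SG against IFE, none rose, and Rora (-1.49, adjusted p = 0.000187), Pou2f3 (-1.44, adjusted p = 0.00021), Ehf (-1.77, adjusted p = 0.000398) and Satb1 led by p. Under either scaling 5 fell. In HF against IFE 3 of them fell, Rora (-1.9), Satb1 and Pou2f3 (-1.56), while Barx2 (1.31, adjusted p = 0.00409) and Dlx3 (1.38, adjusted p = 0.0343), known from the hair follicle, rose. In SG against HF, Ovol1 (-1.83), Dlx3 (-2.03) and Ehf (-1.27) fell. Of 7 other measured sebaceous transcription factors, Pparg, the receptor that drives lipid synthesis, rose in SG against IFE (3.38, adjusted p = 2.48e-05) and against HF (2.60, adjusted p = 0.000515). Runx1 (1.58) and Sox9 (1.08) rose in HF against IFE, and under either scaling also in SG. Foxo1 fell in SG against HF (-1.59, adjusted p = 0.00102). Of 21 measured barrier genes, 13 fell and none rose in SG against IFE, with Abca12, a lipid transporter, at -3.05 and the lipoxygenase gene Aloxe3 at -2.70. In HF, 10 barrier genes fell and Tgm5, a transglutaminase gene, rose (1.07, adjusted p = 0.0122). The barrier list was at -0.78 to -0.63 in SG, -0.30 to 0.05 in HF and 0.71 to 0.99 in IFE.

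Members that had the same order of compartments also tracked each other over the 9 arrays, which fall into 3 compartments, so that a correlation here mostly describes the differences between groups. Pearson's r was 0.966 for Klf4 and Myc, 0.934 for Klf5 and Grhl3 and -0.919 for Klf4 and Gata6. Among 3219 genes that rested on at least 3 probe sets and passed the F test, the genes most like each member over the arrays were as follows. For Trp63 they were Snrpd3 (r = 0.993), Naprt and Samhd1, and for Klf4 Asah2 (r = 0.997), Ly6m and Il1f9. The Klf4 neighbours had wider steps than Klf4 itself, with SG minus IFE differences of -3.03 for Asah2 and -3.69 for Il1f9. For Klf5 they were Ptk6 (r = 0.992), Clasp2 and Uhrf1bp1l, and for Grhl3 Cmtm6 (r = 0.994), Fnip1 and Plcb3. Grhl1 was most like Pdxdc1 (r = 0.991), Tgm6 and Sh3bp5, of which Tgm6 differed by -1.62 in SG and -0.15 in HF, each against IFE. Gata6 was most like Pck1 (r = 0.974), S100b and Arhgap26. Prdm1 was most like Nfatc2 (r = 0.989), Kansl1 and Ppfibp2, with SG minus HF differences of -1.05, -1.04 and -1.13. Myc was most like Tiparp (r = 0.988), Pim3 and Ifi202b. Cebpa and Cebpb did not pass the F test, and no likeness was computed for them.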

How the data were processed

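Per the labels' protocols, the RNeasy micro kit yielded the RNA, and the WT-Ovation Pico and Exon Module kits amplified it. The authors deposited an intensity for each of 154736 probe sets on 9 arrays, on a linear scale from 2.50 to 30815. The submitters' processing notes name RMA, Affymetrix Power Tools and mm9, with no versions or roles. No detection calls were used, so signal over background is unknown.

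The log2 of each deposited value was taken, with no pseudocount. Only the 146964 probe sets with 1 symbol in the platform annotation were named (1060 had several, 6712 none), with 1746 genes' symbols updated through RefSeq. Genes had a median of 8 probe sets. A limma model (3.58.1, R 4.3.3) held 1 mean for each compartment and used all 9 arrays. Benjamini-Hochberg adjustment ran over all 14507 genes or all probe sets, and a change required an adjusted p below 0.05 with an absolute log2 difference of 1 or more. P-values measure the spread between pooled dissections, and the number of arrays limits precision.

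Simulated data had noise drawn independently for each gene or probe set, with no effect shared across an array. Counts from them may not carry over to the real arrays. The planned diffSplice test made 555 false calls on simulated data over 146053 probe sets for SG against IFE. A deviation test with each probe set's own variance therefore replaced it. That test made 2 false calls and recovered 83 of 100 probe sets shifted by 3 and 20 of 100 shifted by 1.5. The false calls of both tests were counted only in genes with no shifted probe set. False calls on the unshifted probe sets of a gene that held a shifted one were not counted. The gene test recovered 88 of 100 genes changed by 1.5 and 98 of 100 changed by 3, with 6 false calls among 14507 genes. The test of single probe sets recovered 28 of 100 shifted by 1.5 and 85 of 100 shifted by 3, with 5 false calls. A probe set that did not pass may therefore still differ.

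Replicate numbers were not taken to pair the arrays. The correlations of deviations from group means ran from -0.02 to 0.23 over 9 same-numbered pairs. In groups this small, such correlations cannot decide whether same-numbered pools were paired. The labels give no batch. All members are named. Each list described names, from its changed genes, at most 4 by smallest p and at most 2 that go the other way, and others, named to complete a count or beside a result, were chosen after their values were seen. The members and lists were chosen with earlier results of these data known. Alternatives covered scaling, blocks, the gene value, dim genes, eBayes settings, array weights, thresholds and arrays left out.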

Additional observations from a re-analysis of the deposited data

How the results depend on the processing

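Of 8 falls of member genes called against IFE, each under 21 alternatives, 151 of 168 values kept the call, 17 came short of it and 0 turned. Klf4 and Grhl3 in SG and Grhl3 in HF kept it throughout, at -1.82 to -1.09, -2.64 to -2.07 and -1.79 to -1.28. The 5 members that fell in SG against IFE became 3 under quantile normalization or median centring, 8 with no minimum or a minimum of 0.5 and 2 with a minimum of 1.5. The 3 in HF against IFE became 5 with array weights, 6 with no minimum or 0.5, 1 with 1.5 and 5 without SG replicate 3 and HF replicate 2 together. The 0 in SG against HF became 2 with the brightest probe set or the mean of probe sets, 1 with centred probe sets, with array weights or without those 2 arrays, and 3 with no minimum or 0.5. Leaving out 1 array at a time gave 3 to 6, 3 to 6 and 0 to 1. The lowest count in SG against IFE came without SG replicate 2 or IFE replicate 2, and the count of 6 in HF against IFE came without IFE replicate 1. Calls over all genes moved too. In HF against IFE they were 429 higher and 487 lower in the main fit and 463 and 699 with array weights. Without IFE replicate 1 they were 412 and 734, and without SG replicate 3 and HF replicate 2 together 458 and 611. The share of all genes at the other minimum differences is not given here. For probe sets, 51 in SG against IFE became 27 with the letter ending the array name as a block and 30 with a minimum of 1.5, 34 in HF against IFE became 7 and 14, and 14 in SG against HF became 0 and 7, 23 with array weights and 8 with only the 2 groups fitted. Leaving out 1 array gave 40 to 56, 19 to 36 (19 without either of HF replicates 1 and 3 or without IFE replicate 2) and 4 to 24 (4 without HF replicate 3, 24 without SG replicate 3). The 24 deviations became 0 with the letter block, which leaves fewer residual degrees of freedom and no weight to 3 arrays with a letter of their own, and 9 to 31 without 1 array, with 9 without IFE replicate 2. The planned diffSplice test gave 27, and the deviation test that replaced it and centred probe sets were chosen after seeing the data. The block of replicate numbers, which are not known to pair the arrays, gave 5, 3 and 0 member genes, 53, 34 and 16 probe sets and 18 deviations.

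The sign turned 29 times, each time for a difference whose size was at most 0.18, and the cause was not tested. Grhl1 in HF against IFE turned to 0.20 under quantile normalization, 0.0403 under median centring and 0.0807 without SG replicate 3 and HF replicate 2, with -0.19 to 0.0807 when 1 array was left out. Trp63 in SG against HF turned to 0.0703 with quantile normalization, 0.0996 with each array's median centred, 0.106 with the letter block and 0.0956 with the brightest probe set, with -0.31 to 0.14 when 1 array was left out. Klf4 in SG against HF turned to 0.13 and 0.11 under the scalings, 0.0777 with array weights and 0.12 without those 2 arrays, with -0.14 to 0.18 when 1 array was left out. Cebpa in SG against IFE turned to -0.74 with the brightest probe set, -0.0729 with the mean, -0.0353 with centred probe sets and -0.0887 with array weights, with -0.12 to 0.15 when 1 array was left out. Gata6 in SG against HF turned to 0.0211 with the brightest probe set and 0.00854 with centred probe sets. Cebpb in HF against IFE ran from -0.0422 to 0.16 when 1 array was left out.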
